A study of Homo sapiens with 9 samples.

Results

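The S100 genes encode small proteins that bind calcium through a pair of EF hands, and the 9 described here are those with a known place in myeloid cells: S100A4, S100A6, S100A8, S100A9, S100A10, S100A11, S100A12, S100A13 and S100P. They were taken by symbol from a table of 56541 genes, where each had 1 entry. The family was chosen by its measured values, with the knock-down log2 fold changes of these genes in the same libraries already known, among them that of S100A9. The knock-down values of the members are therefore given as a description, without a p-value of their own, and support nothing. Where calls of the members in that contrast are counted, the count describes the fit and is no test of the family.

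RNA was measured in MOLM-13 cells, an established human line of acute myeloid leukaemia with monocytic features, with 3 libraries in each of 3 groups. Total RNA of cells carrying a control hairpin gave the group shCONTROL, and that of cells carrying a hairpin to BCLAF1 gave shBCLAF1. BCLAF1 is a protein of the nucleus that binds RNA. The RIP group held RNA that came down with BCLAF1 from shCONTROL cells, of which more were used per sample than for RNA-seq. All 9 samples had been kept in doxycycline at 200 ng/µL for 4 days and carry the same batch label. The labels do not say whether the 3 replicates of a group were separate cultures, so each p-value measures only the spread between these libraries, which may be technical. No mock precipitation is labelled, so the RIP was set against the shCONTROL RNA-seq, and binding cannot be told apart from background of the precipitation.

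S100A8 and S100A9 form calprotectin, the heterodimer that fills the cytosol of neutrophils and monocytes and that acts outside the cell as an alarm signal through TLR4 and the receptor AGER. S100A12 is a related alarm protein of granulocytes. S100A10 and S100A11 bind annexins at membranes, S100A4 binds non-muscle myosin, S100A6 binds CACYBP, S100A13 takes part in the release of FGF1, and S100P binds ezrin. In the myeloid lineage S100A8 and S100A9 are known as genes of late maturation.

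In RefSeq on GRCh38.p14, 8 of the 9 genes lie on chromosome 1 within 1.65 Mb, and S100P lies on chromosome 4. RefSeq promoters were found for all 9 genes, with 13 start sites in all. The bases just before the start are shown because an exact TATAAA, the core letters of a TATA box, stands there in some members and not in others. Each line gives the 80 bases that end at the start site, 5′ to 3′ on the gene's strand, with a TATAAA in capitals.
S100A9 (chr1:153357774-153357853, plus strand): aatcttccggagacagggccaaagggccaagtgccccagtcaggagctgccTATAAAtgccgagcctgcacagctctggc
S100A8 (chr1:153391074-153391153, minus strand): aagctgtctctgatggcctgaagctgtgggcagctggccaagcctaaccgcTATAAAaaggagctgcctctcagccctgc
S100P (chr4:6693798-6693877, plus strand): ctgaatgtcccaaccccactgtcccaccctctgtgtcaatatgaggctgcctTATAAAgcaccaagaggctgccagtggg
S100A4 (chr1:153545807-153545886, minus strand): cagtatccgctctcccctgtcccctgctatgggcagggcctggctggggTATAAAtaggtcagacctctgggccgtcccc
S100A10 (chr1:151993860-151993939, minus strand): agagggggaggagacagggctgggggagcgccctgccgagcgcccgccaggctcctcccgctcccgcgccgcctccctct
S100A11 (chr1:152037005-152037084, minus strand): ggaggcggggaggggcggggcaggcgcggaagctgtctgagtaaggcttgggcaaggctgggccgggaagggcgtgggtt

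TATAAA on the gene's own strand within 50 bases before a start site was found for 6 of the 9 members (66.7%) and for 3.33% of the 27305 genes with a RefSeq promoter. The 6 were S100A4, S100A8, S100A9, S100A12, S100A13 and S100P, of which S100A8 and S100A13 had it at 1 of their 3 start sites each. The motif began 29 bases before the start in S100A8, S100A9 and S100A13, 28 before it in S100P, 31 in S100A4 and 8 in S100A12. S100A6, S100A10 and S100A11 had no exact match in that window, and S100A6 has TATAAG there, which the search did not count. The form TTNNGCAA, which C/EBP factors can bind, was searched on both strands of the 250 bases before each start. It was found for S100A11 and S100A12 and in 9.05% of all 35116 start sites. GAGGAA, a core that PU.1 can bind, was found for S100A8 and S100A9 and in 23.6% of all start sites. A match is a description of the letters and not a site.

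The libraries held 25819144 to 36635268 estimated counts, and 3 counts, taken as the floor of detection, equalled 0.0789 to 0.118 CPM (counts relative to the library total, in the usual CPM unit). Levels are given as CPM scaled by the trimmed mean of M values (TMM) over all 9 libraries, and they are not compared between genes because no transcript length was used. BCLAF1, the target of the hairpin, measured 322 ± 8.41 CPM in shCONTROL and 113 ± 12.5 CPM in shBCLAF1 (SD, n = 3 each), and 1034 to 1147 CPM in the RIP. Of 8 markers of myeloid identity, all were detected in every group, with PTPRC at 182 to 217 CPM and SPI1 at 240 to 257 CPM in shCONTROL. Of 14 markers of other cell types, 9 were at 0 in all libraries, among them HBB, CD3E, PF4, EPCAM and COL1A1. CD3D stood at 11.4 CPM and PECAM1, which leukocytes also express, at 187 CPM on average in shCONTROL. HBA1 was at 0 in all RNA-seq libraries and at 1.24 to 2.67 CPM in the RIP. In bulk RNA a change in the number of expressing cells and a change of the RNA per cell cannot be told apart.

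The first comparison asks which transcripts differ when BCLAF1 is depleted, and within the family the calprotectin genes stood highest. S100A9 measured 2.07, 1.84 and 2.31 CPM in shCONTROL replicates 1, 2 and 3 and 26.8, 24.8 and 25.8 CPM in shBCLAF1. The lowest shBCLAF1 library lay more than 10 times above the highest shCONTROL library. Its log2 fold change was 3.61 (SE 0.11), or 12.2-fold, and 0.383% of the 16961 genes tested had a higher one.

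S100A8, the other subunit of calprotectin, measured 0.708, 0.770 and 1.00 CPM in shCONTROL, from 25, 26 and 36 counts, and 5.84, 6.13 and 5.73 CPM in shBCLAF1, from 222, 232 and 210 counts. The groups did not overlap, and the log2 fold change was 2.76 (SE 0.16), or 6.77-fold. S100A12, whose gene lies between those of S100A9 and S100A8, was listed at 0 in all 9 libraries. Whether reads lay below such a 0 is not known, since these are estimates.

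S100A8 did not keep step with S100A9. The ratio of S100A8 to S100A9 counts was 0.342, 0.419 and 0.434 without knock-down. After knock-down it was 0.218, 0.247 and 0.222. Every shBCLAF1 library thus held fewer S100A8 counts per S100A9 count than any shCONTROL library. The mean log2 ratio, with 1 count added to each gene, was 0.82 lower in shBCLAF1.

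S100A6, a calcium sensor that many growing cells express, measured 47.4, 47.4 and 47.2 CPM in shCONTROL and 73.5, 65.9 and 78.1 CPM in shBCLAF1. The groups did not overlap, and the log2 fold change was 0.62 (SE 0.07), or 1.53-fold.

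S100P stood lower after knock-down. It measured 5.55, 6.16 and 4.84 CPM in shCONTROL and 3.18, 2.35 and 2.21 CPM in shBCLAF1, groups that did not overlap. Its log2 fold change was -1.08 (SE 0.18). S100A13 measured 2.92, 3.70 and 2.89 CPM in shCONTROL and 1.92, 1.90 and 2.40 CPM in shBCLAF1, with a log2 fold change of -0.60 (SE 0.17). All its shBCLAF1 libraries lay under all shCONTROL libraries, with a gap between the groups close to the SD within them. S100A10, the partner of annexin A2, measured 85.5, 92.8 and 88.2 CPM in shCONTROL and 75.6, 71.1 and 62.6 CPM in shBCLAF1, with a log2 fold change of -0.34 (SE 0.08).

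S100A11 and S100A4 were the members whose groups overlapped. S100A11 measured 112, 105 and 111 CPM in shCONTROL and 114, 113 and 106 CPM in shBCLAF1, with a log2 fold change of 0.02 (SE 0.05) and a 95% interval from -0.09 to 0.14. S100A4 measured 107, 61.7 and 108 CPM in shCONTROL and 78.1, 127 and 75.3 CPM in shBCLAF1. In each of these groups replicate 2 stood apart from the other two, low in shCONTROL and high in shBCLAF1. The log2 fold change of S100A4 was 0.02 (SE 0.29, 95% interval -0.69 to 0.73), and it was -0.19 without shCONTROL replicate 2 and -0.26 without shBCLAF1 replicate 2.

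**Figure D1:**
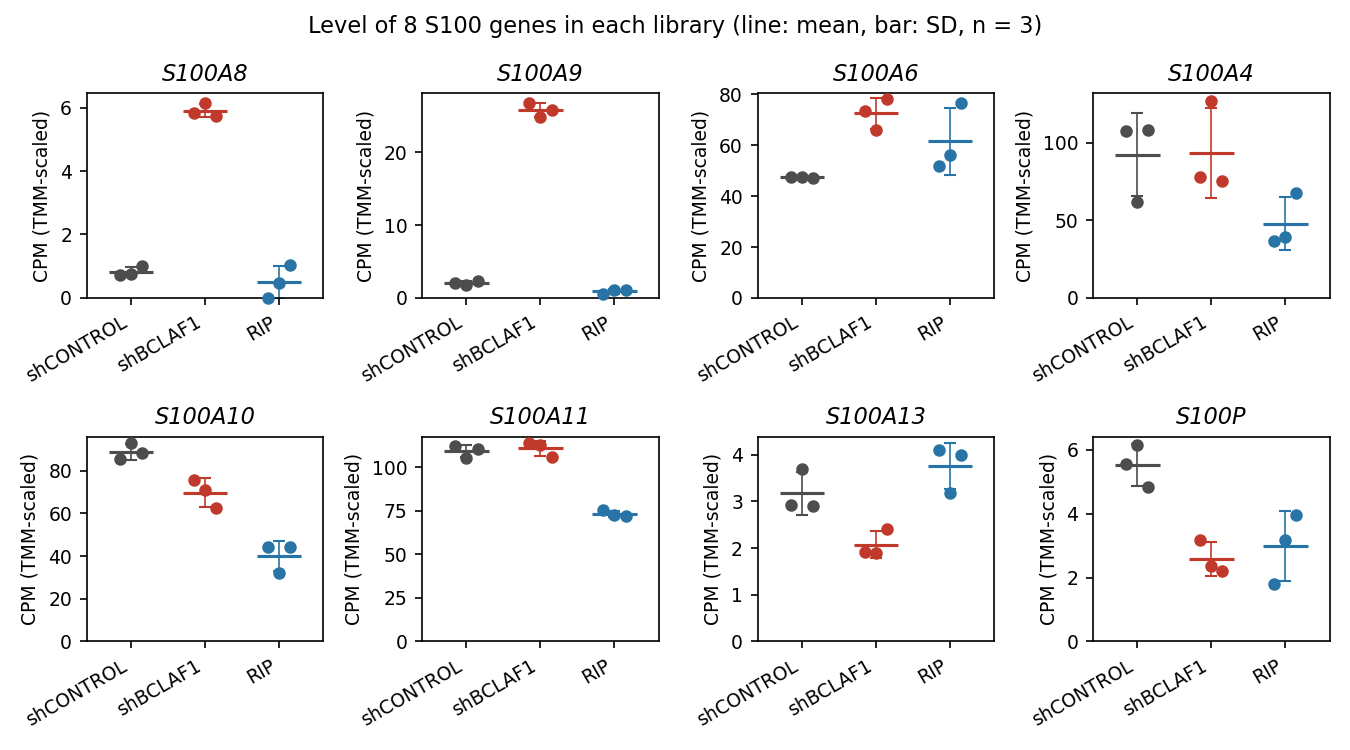
Level of 8 S100 genes (TMM-scaled CPM, linear axes from 0) in the 3 libraries of each group, with the mean as a line and the SD as a bar. S100A8 and S100A9 are highest in the shBCLAF1 column (5.73 to 6.13 and 24.8 to 26.8 CPM), and S100A4 shows the widest scatter between replicates of the RNA-seq groups.

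Of the 8 members tested, 3 were called higher (S100A6, S100A8 and S100A9) and 3 lower (S100A10, S100A13 and S100P) at an adjusted p under 0.05 by the edgeR quasi-likelihood test, which called 32.3% of all 16961 genes tested, 15.5% higher and 16.9% lower. The same 6 were the members whose groups did not overlap, 3 higher and 3 lower, beside 49.3% of all genes tested, 24.2% higher and 25.1% lower. Since the members were chosen with this contrast known, nothing is read from these counts. All 8 members tested passed the filter on low counts through their shCONTROL libraries alone, and S100A12 did not pass. In 1 fit of all 9 libraries S100A6, S100A9 and S100P were still called, and S100A8, S100A10 and S100A13 were not. The call of S100A13 was lost in 8 of 12 alternatives and that of S100A10 in 3, among them the fits without shCONTROL replicate 2 and without shBCLAF1 replicate 2. The summed level of the 9 genes was 349 ± 25.7 CPM in shCONTROL and 383 ± 27.2 CPM in shBCLAF1 (SD, n = 3 each). The libraries of these groups overlapped in this sum, which ran from 319.6 to 365 CPM and from 358 to 412 CPM.

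The S100 genes of chromosome 1 had unlike values after knock-down. S100A9 and S100A8, which lie near each other, were both high, at 3.61 and 2.76. From S100A10 to S100A13 the chromosome 1 window (chr1:151982915-153634361) holds 71 other genes of the table, and 65 of them were at 0 in all 9 libraries. Only 2 of the 71 were tested, the pseudogenes SPTLC1P4 and HMGN3P1, with log2 fold changes of 0.15 (SE 0.39) and 0.02 (SE 0.38). Within the window the members' log2 fold changes ran from -0.60 for S100A13 to 3.61 for S100A9. S100A6 and S100A4 lie on either side of S100A5, the first with groups apart and the second with overlapping groups. Of 11 further S100 family genes, 8 were at 0 in all libraries and none was tested. S100A5 overlaps S100A4 at one end and S100A1 lies within the span of S100A13, and how the counting used strand is not given in the sources used here, so reads in those overlaps cannot be assigned. The 7 entries of S100A11 pseudogenes were at 0 in all libraries.

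**Figure D2:**
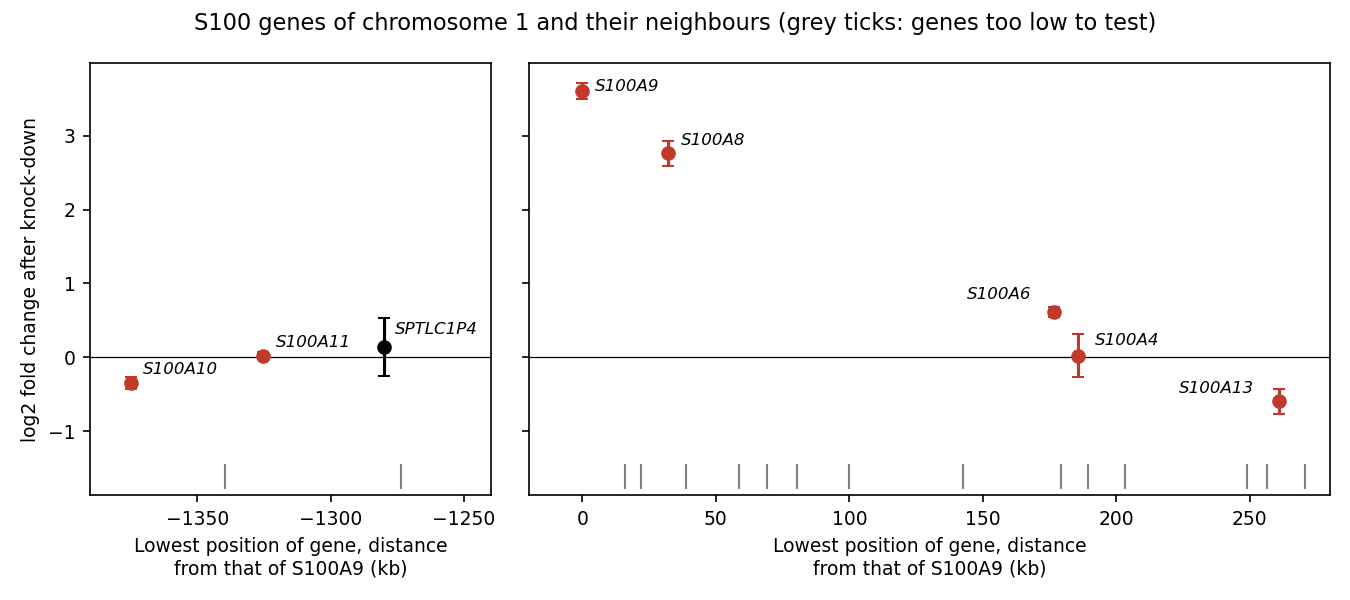
Log2 fold change after knock-down (points, with the standard error) against the distance in kb of each gene's lowest position from that of S100A9, with a break in the axis, for the S100 genes of chromosome 1 in red and the tested pseudogene SPTLC1P4 in black (HMGN3P1 lies in the break), with grey ticks for genes too low to test. S100A9 and S100A8 stand at 3.61 and 2.76, and the other S100 genes lie between -0.60 and 0.62.

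The genes with the profile nearest to S100A9 over the 9 libraries were CFP, CYBB, KLHL33, CEBPE and SLPI. Nearness was the root mean square difference of log2(CPM + 1) values centred over the libraries, among 12470 genes with a mean of at least 50 counts. The differences were 0.32 for CFP, which encodes properdin of the complement system, and 0.36 for CYBB, the catalytic subunit of the phagocyte NADPH oxidase. They were 0.47 for KLHL33 and 0.51 for both CEBPE, a C/EBP factor of granulocyte maturation, and SLPI, a protease inhibitor. The mean of CYBB was 11.6 CPM without knock-down, 72.2 CPM after it and 4.99 CPM among the precipitated RNAs, and that of SLPI 4.79, 38.2 and 0.580 CPM. In the same order CFP averaged 0.397, 10.4 and 0 CPM and KLHL33 0, 5.81 and 0 CPM. Both passed the minimum mainly through the shBCLAF1 libraries. The 1 added to each CPM value exceeds their shCONTROL means, so their nearness depends on it. The nearest to S100A8 were FAM219A (0.26), THBD (0.27) and FCAR (0.30), of which THBD encodes thrombomodulin and FCAR the Fc receptor for IgA. With a minimum mean of 10 counts SERPINB10 (0.29) took the place of FCAR. It averaged 0 CPM in shCONTROL and in the RIP and 3.15 CPM in shBCLAF1. The added 1 is larger than the shCONTROL mean of S100A8 (0.827 CPM), so its profile is flatter here than its change in CPM. FAM219A averaged 4.68 CPM in shCONTROL and 18.6 CPM in shBCLAF1, and THBD 35.7 and 142 CPM. The nearest to S100A10 were ACADSB (0.06), ACP1 (0.07) and PLPBP (0.07).

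The receptors for S100 proteins and their adaptors were listed with earlier results of these data known, so nothing is read from their counts. Of 15 listed, 12 were tested after knock-down, 5 were called higher and 1 lower (15.5% and 16.9% of all genes tested), with a median log2 fold change of 0.31 beside 0.02 over all genes tested. TLR4, the receptor for calprotectin, rose by 1.48 on the log2 scale (SE 0.13, edgeR adjusted p 6.81e-04). Its adaptor MYD88 rose by 1.01 (SE 0.13, edgeR adjusted p 0.00206) and the adhesion molecule ALCAM by 1.12 (SE 0.07, edgeR adjusted p 2.50e-04). CD36 and CD33 also rose, and IRAK1, a kinase downstream of MYD88, fell by 0.48 on the log2 scale (edgeR adjusted p 0.00279). AGER had a log2 fold change of 0.43 (SE 0.21) and was not called. The adaptor TIRAP was at -1.20 (SE 1.08) and was not called either. LY96, CD14 and MCAM were the 3 not tested, listed at 0 in all 9 libraries.

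Among 12 annexins, 9 were tested, 3 were called higher and 1 lower, beside the same 15.5% and 16.9% of all genes tested. Their median was 0.48 on the log2 scale. This list too was chosen with earlier results known, so nothing is read from its counts. ANXA1 had the largest value of the list, 2.78 (SE 1.11, edgeR adjusted p 0.112), and was not called. Its shCONTROL libraries held 0, 137 and 154 counts and its shBCLAF1 libraries 534 to 874. ANXA5 rose by 0.48 (SE 0.05), ANXA7 by 0.67 (SE 0.09) and ANXA2, which pairs with S100A10, by 0.57 (SE 0.08), at edgeR adjusted p-values of 0.00105, 0.00299 and 0.00367. S100A10 itself thus stood lower, at -0.34, while ANXA2 was higher. ANXA6 fell by 0.64 on the log2 scale (edgeR adjusted p 7.17e-04).

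Of 10 partners inside the cell, 7 were tested, 1 was called higher and 3 lower, with a median of 0.03. The shares over all genes tested, 15.5% higher and 16.9% lower, stand beside each count of this paragraph. The lists were chosen with earlier results of these data known, so nothing is read from the counts. MYH9, the myosin heavy chain that S100A4 binds, rose by 0.29 on the log2 scale. AHNAK, a scaffold bound by S100A10 with annexin A2, fell by 0.20 on the log2 scale. S100PBP, which binds S100P, fell by 0.24 on the log2 scale (edgeR adjusted p 0.0251). The call of AHNAK was lost in 4 of 12 alternatives. Among the 6 C/EBP genes and SPI1, all 7 were tested, with 3 called higher and 3 lower and a median of 0.03. CEBPE rose by 2.81 (SE 0.16) and CEBPD by 0.93 (SE 0.10), and CEBPG fell by 0.60 on the log2 scale. CEBPB was called lower at -0.69 (SE 0.09, edgeR adjusted p 0.00224). CEBPZ was called lower at -0.21, a call lost in 6 of 12 alternatives. The myeloid markers also moved: LYZ rose by 1.86 and ANPEP by 1.06, 4 of the 8 were called higher and 1 lower, and their part in the S100 values was not tested.

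The second comparison asks which RNAs came down with BCLAF1 beyond their level in the same cells. No member was enriched, and 3 of 8 tested (S100A9, S100A10 and S100A11) were called lower than in shCONTROL at an adjusted p under 0.05. Of those, S100A9 and S100A10 were depleted by a log2 fold change of at least 1. Over all 16727 genes tested, 49.2% were called at an adjusted p under 0.05, 24.7% lower and 24.6% higher. Adding the limit of 1 on the log2 scale left 13.5% depleted and 11% enriched. The groups did not overlap for 5 members, 4 lower (S100A9, S100A10, S100A11 and S100P) and 1 higher (S100A6), beside 67% of all genes tested, 35.1% lower and 31.9% higher. The members' median log2 fold change was -0.77 beside -0.05 over all genes tested. Scaling by total counts moved the median of all genes by -0.11, and nothing particular to the family is read from these counts.

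S100A10 was the clearest. It measured 44.2, 32.2 and 44.0 CPM in the RIP beside 85.5, 92.8 and 88.2 CPM in shCONTROL, and no RIP library reached any shCONTROL library. Its log2 fold change was -1.15 (SE 0.13, edgeR adjusted p 0.00108), and all 13 alternatives called it lower. S100A11 measured 75.1, 72.5 and 72.1 CPM in the RIP beside 105 to 112 CPM in shCONTROL, a log2 fold change of -0.58 (SE 0.07, edgeR adjusted p 0.00131) that was also called in all 13.

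S100A9 was low in shCONTROL cells already. The RIP libraries held 13, 32 and 30 counts, or 0.512, 1.13 and 1.04 CPM, beside 73, 62 and 83 counts in shCONTROL, and the groups did not overlap. The log2 fold change was -1.16 (SE 0.36, edgeR adjusted p 0.0375, over the alternatives 2.09e-05 to 0.119). Leaving out any shCONTROL library or RIP replicate 3 ended the call, as did a term for the replicate number. S100A8 held 0, 13 and 30 counts in RIP replicates 1, 2 and 3 beside 25 to 36 in shCONTROL. At these counts a difference was not detectable: the log2 fold change was -0.66 with a 95% interval from -3.20 to 1.88 (edgeR adjusted p 0.625). The ratio of S100A8 to S100A9 counts was 0, 0.406 and 1 in the RIP libraries, a scatter that enclosed the shCONTROL values (exact two-sided permutation test of the mean log2 ratio, p = 0.8, where 0.1 is the smallest that 3 against 3 allow).

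S100A4 and S100P missed the threshold by little. S100A4 measured 36.5, 39.3 and 67.5 CPM in the RIP beside 107, 61.7 and 108 CPM in shCONTROL, so that RIP replicate 3 lay above shCONTROL replicate 2. Its log2 fold change was -0.96 (SE 0.32, edgeR adjusted p 0.0501, over the alternatives 0.0143 to 0.142), and 7 of 13 alternatives called it lower. S100P measured 1.81, 3.18 and 3.96 CPM in the RIP, under each of the shCONTROL libraries at 4.84 to 6.16 CPM. Its log2 fold change was -0.88 (SE 0.31, edgeR adjusted p 0.0571, over the alternatives 0.0298 to 0.289), and 3 of 13 alternatives called it lower.

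S100A6 and S100A13 had RIP values above the shCONTROL mean without passing the test. S100A6 measured 51.7, 56.0 and 76.6 CPM in the RIP, each above the shCONTROL libraries at 47.2 to 47.4 CPM, with a log2 fold change of 0.37 (95% interval -0.01 to 0.75, edgeR adjusted p 0.0971). S100A13 measured 4.09, 3.18 and 3.99 CPM, which overlapped shCONTROL at 2.89 to 3.70 CPM, and its log2 fold change was 0.23 (95% interval -0.25 to 0.72, edgeR adjusted p 0.371). S100A6 passed without RIP replicate 1 (0.48), and S100A13 passed against both RNA-seq groups (0.54, edgeR adjusted p 0.0232).

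**Figure D3:**
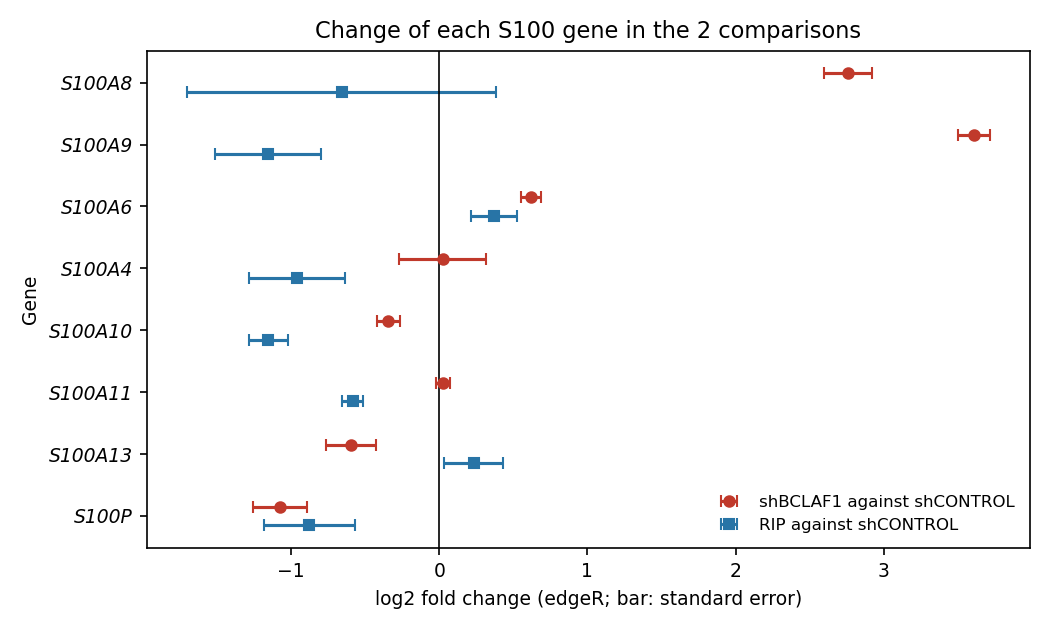
Log2 fold change of 8 S100 genes with its standard error, for shBCLAF1 against shCONTROL (red circles) and RIP against shCONTROL (blue squares), which share the shCONTROL libraries. S100A9 and S100A8 lie far to the right after knock-down (3.61 and 2.76) and left of 0 in the RIP, and S100A10 lies left of 0 in both.

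The comparisons share their control libraries, so the values are only set side by side. S100A10 was at -0.34 after knock-down and -1.15 in the RIP, S100P at -1.08 and -0.88, and S100A9 at 3.61 and -1.16. S100A6 was at 0.62 and 0.37, and S100A11 at 0.02 and -0.58.

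The RIP value of a gene moved with the length of its genomic span. Among 11031 tested protein-coding genes with a RefSeq span, 24.4% of the 1110 genes under 5 kb were depleted and their median stood at -0.39. Of the 1791 genes over 100 kb, 4.24% were depleted and the median stood at 0.40. Of the 8 members tested, S100A4, S100A6, S100A9, S100A11 and S100P span under 5 kb, S100A10 spans 10.9 kb, S100A13 15.6 kb and S100A8 32.6 kb. The span of S100A8 runs far beyond the 3 start sites of the promoter table, which lie near its low end, so the class of S100A8 is uncertain. The members under 5 kb lay at -1.16 to 0.37, on either side of the median of their span class. The part of gene span in the members' values was not tested.

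**Figure D4:**
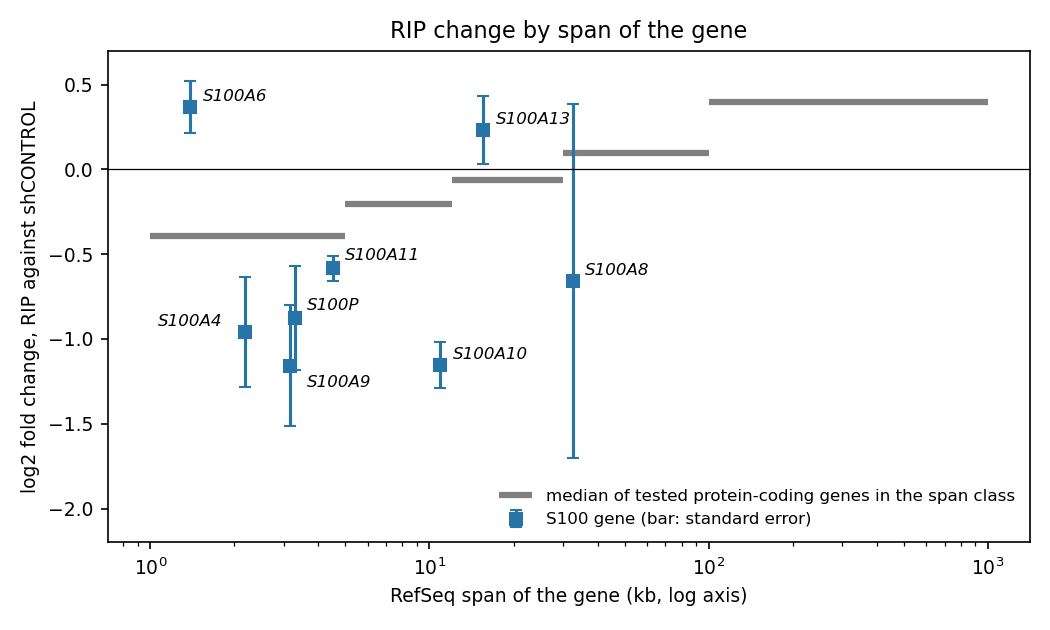
Log2 fold change in the RIP against the RefSeq span of each gene in kb (log axis), for 8 S100 genes with the standard error and, as grey lines, the median of all tested protein-coding genes in each of 5 span classes. The class medians rise from -0.39 under 5 kb to 0.40 over 100 kb, and S100A6 lies above the line of its class while S100A4, S100A9, S100A11 and S100P lie under it. The first and last classes are open-ended and their lines stop at the edge of the range drawn.

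In the RIP 2 of the 9 annexins tested were higher and 4 lower, with a median of -0.10. Over all genes tested in the RIP 24.6% were called higher and 24.7% lower. These shares stand beside each count of this paragraph, and nothing particular to a list is read from the counts. ANXA8 was at 1.90 (SE 0.21, edgeR adjusted p 9.40e-04) and ANXA7 at -1.44 (SE 0.14, edgeR adjusted p 5.83e-04), and ANXA11 fell by 0.65 on the log2 scale. Of the 12 receptors and adaptors tested, 1 was higher and 2 lower, with a median of -0.23: IRAK1 at 0.60, TLR4 at -0.55 and BSG, a receptor for S100A9, at -0.92. Of the 7 partners tested, 1 was higher, CACYBP at 0.41, and 1 lower, with a median of 0.27. EZR, the partner of S100P, was not called after knock-down (0.03, SE 0.04) or in the RIP (0.41, SE 0.18). CEBPZ, CEBPA and CEBPG were higher at 1.06, 0.43 and 0.27, none of the 7 genes of that list was lower, and their median was 0.10. The calls of CACYBP, CEBPA and CEBPG were lost in 6, 5 and 6 of 13 alternatives, and those of IRAK1 and MPO in 2 and 3. That of ANXA6, among the 4 lower annexins (-0.43, edgeR adjusted p 0.0484), was lost in 8. Of the myeloid markers, 1 was higher and 3 lower, with LYZ at -3.97, FLT3 at 0.88 and MPO at -0.66.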

How the data were processed

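Estimated counts of each gene in 9 libraries, without normalization, make up the 1 table the authors deposited. Per the labels' protocols, the stranded libraries were made after depletion of ribosomal RNA and sequenced from both ends. STAR 2.7.11b, StringTie 2.2.3 and build hg38 are named in the submitters' processing notes, without roles. How the counts were derived is not given in the sources used here. The value 1 was given to 6 to 17 genes of a library and the value 2 to 103 to 197, so low values may not be tallied reads. An entry naming no gene (2.18% to 3.75% of the counts in 8 libraries) was left out. Identifiers of 56012 of the 56541 genes matched the name table.

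Each comparison was fitted on its own 6 libraries over all genes with edgeR 4.0.16 in R 4.3.3: filterByExpr with a minimum count of 10, TMM scaling, a prior count of 2, the quasi-likelihood F-test and Benjamini-Hochberg adjustment over all genes tested, at 0.05. Standard errors come from the log2 fold change and its F statistic, and intervals from the test's degrees of freedom. DESeq2 1.42.0, other scaling, no filter, all 9 libraries, a replicate block, another RIP reference and leaving out each library were tried. The members and lists were chosen with earlier results of these data known. All 9 members were named, with the 3 genes of each other list with the smallest adjusted p per comparison, the genes nearest in profile to S100A9 (5), S100A8 and S100A10 (3 each), and BCLAF1. Some genes that this rule names are not reported here. S100PBP, CD36, CD33, AGER, ANXA1, ANXA2, SERPINB10, PTPRC, HBB, CD3E, PF4, EPCAM, COL1A1, SPTLC1P4, HMGN3P1, S100A1, S100A2 and S100A5 were named after their values were seen. So were LY96, CD14, MCAM, TIRAP and CEBPB. The search for motifs, the classes of gene span and the chromosome 1 window were also added then.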

Additional observations from a re-analysis of the deposited data

How the results depend on the processing

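The calls of S100A10 and S100A11 in the RIP held in every alternative run. The knock-down counts of members are a description, since the members were chosen on that contrast. In the fit of all 9 libraries 3 members were called, 1 of them lower, with 1129 genes higher and 1318 lower in all. Leaving out 1 library gave 4 to 6 members called, 3 higher and 1 to 3 lower, with 1 lower without shCONTROL replicate 2 or shBCLAF1 replicate 2. The same fits called 1975 to 2642 of all genes higher and 2171 to 2730 lower. In the RIP 5 members were called under total counts, in the fit of all 9 libraries and against both RNA-seq groups. All 5 were lower under total counts and in the fit of all 9 libraries, and 1 was higher against both RNA-seq groups. Depleted members numbered 4 under total counts, which moved the median gene by -0.11, and 1 against both RNA-seq groups. Leaving out 1 library gave 2 to 4 members called in the RIP, 0 to 1 higher, 2 to 4 lower and 1 to 3 depleted. Only 1 was depleted without shCONTROL replicate 1 or 3 or RIP replicate 1. Of all genes, 1757 to 1979 were enriched and 2048 to 2888 depleted in these fits, and nothing particular to the family is read from the member counts. The RIP difference in the log2 ratio of S100A8 to S100A9 ran from -1.22 to 0.69, the latter without RIP replicate 1.

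Samples with the same number deviated together weakly at most (correlations of 0.026 to 0.084 between shCONTROL and shBCLAF1 and -0.023 to 0.020 between shCONTROL and RIP). Each shCONTROL library matched its own number best in shBCLAF1, so a weak pairing there cannot be set aside. With the replicate block 5 members were called after knock-down and 1 was depleted in the RIP.

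Leaving out 1 library changed the sign of some log2 fold changes that were not called with all libraries. After knock-down they ran from -0.26 to 0.16 for S100A4, from -0.025 to 0.060 for CEBPA and from -0.17 to 0.0074 for MPO. S100A4 was below 0 without shCONTROL replicate 2 (-0.19) or shBCLAF1 replicate 2. In the RIP they ran from -0.20 to 0.10 for MYD88, from -0.25 to 0.76 for MYH9, from -0.74 (without RIP replicate 2, where it was called lower, edgeR adjusted p 0.00687) to 0.37 for AHNAK, from -0.98 to 0.24 for ANPEP and from -0.099 to 0.25 for SPI1. AHNAK was also at -0.092 under total counts and -0.20 with the replicate block. SPI1 was also at -0.023 under total counts and -0.078 against both RNA-seq groups. The causes of these changes were not tested. Low counts of S100A8 in shCONTROL and the RIP limit what its RIP value can show.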

Other observations

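Of the S100 genes outside the 9, S100A1, S100A2 and S100A5 each had counts in 1 library, all of them shBCLAF1 libraries: 15 counts of S100A1 and 13 of S100A5 in replicate 3, and 15 of S100A2 in replicate 2. Each of them was at 0 in the other 8 libraries, and none was tested.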
